A study of Mus musculus with 2 samples.

Results

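The genes described here encode the pore-forming and accessory subunits of potassium, voltage-gated sodium and CLC chloride channels. Every gene whose symbol begins with Kcn, letters and a number, or reads Scn, a number and a or b, or Clcn and a number, was taken, which gave 114 of the 26100 genes listed in both libraries. All 114 are annotated as protein-coding. By family they comprise 40 voltage-gated potassium channel alpha subunits, 15 inward rectifiers, 14 two-pore-domain potassium channels, 12 subunits of calcium- or sodium-activated potassium channels, 12 potassium channel accessory subunits, 10 sodium channel alpha subunits, 4 sodium channel beta subunits and 7 CLC chloride channels and exchangers. The epithelial sodium channel genes Scnn1a, Scnn1b and Scnn1g, and Kcnrg lie outside that naming rule.

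The study compared mouse embryonic fibroblasts (MEF) with induced myogenic progenitor cells (iMPC), which are cells that fibroblasts become when the muscle factor MyoD acts on them together with the additives abbreviated F/R/C; the series' design text calls the iMPC culture a stable clone. Both libraries carry the genotype Tg:Pax7-nGFP/C57BL6;DBA2, name MEF as the source cells and were made with the same 10x Genomics 3′ kit. The treatment label gives MEF media for the MEF and F/R/C medium for the iMPC; the protocol field of the MEF library repeats the iMPC text, and the treatment label was followed. Each culture gave 1 library, so no value has a replicate, no difference between cultures or cell sets has a test, and every interval given covers counting error only. Levels are CPM, the unique molecular identifiers (UMIs, counted RNA molecules) of a gene per 1000000 UMIs of all genes in a set of cells, with exact Poisson 95% intervals; a log2 ratio is that of 2 such levels.

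After cells with more than 20% mitochondrial UMIs were left out, 6043 MEF cells with 118069653 UMIs remained. In iMPC, where cells also had to reach a minimum number of UMIs, 9349 cells passed the same limit and held 232728796 UMIs. Within iMPC, 4 sets were cut by UMIs of marker genes that are not channel genes: 2180 cells with Pax7 but no Myog (Pax7-positive), 1724 cells with at least 5 Myog and at most 1 Ckm UMIs (Myog-high), 1037 cells with at least 5 Ckm UMIs (Ckm-high) and 553 cells with at least 5 Dcn UMIs (Dcn-high). Pax7 marks muscle progenitors, Myog committed myoblasts, Ckm differentiated muscle cells and Dcn fibroblasts. The Dcn-high set shares 110 cells with the Pax7-positive, 18 with the Myog-high and 18 with the Ckm-high set; 4001 iMPC cells fall in none. Median depth was 18729.5 UMIs per cell in the Pax7-positive, 23857.5 in the Myog-high, 42148 in the Ckm-high, 18064 in the Dcn-high and 18929 in the MEF set. A count of 0 allows up to 0.0254 CPM in MEF, between 0.0617 and 0.0682 CPM in the first 3 iMPC sets and 0.246 CPM in the Dcn-high set. The kept cells of both libraries have 16 barcodes in common.

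The fibroblast and myocyte marker lists were highest in the sets named for them, with mixing in the Dcn-high set. The satellite cell list, as a sum that was largely Des, was not highest in Pax7-positive cells. The myoblast list was about equal in Myog-high and Ckm-high cells. Each list holds the gene that its iMPC set was cut on, so part of each sum follows from the cut. Dcn made up 1162 CPM of the fibroblast sum in Dcn-high cells and Ckm 409 CPM of the myocyte sum in Ckm-high cells. Of the myoblast sums, Myog made up 1339 CPM in Myog-high and 939.5 CPM in Ckm-high cells. It was 0 in Pax7-positive cells by the cut. The 10 satellite cell genes summed to 1433 CPM in Pax7-positive, 1577 in Myog-high and 2979 CPM in Ckm-high cells, and the 6 committed myoblast genes to 360, 5711 and 5604 CPM. Of the satellite cell sums, Des made up 648, 1098 and 2537 CPM in the same order. Pax7 (the gene cut on), Myf5, Vcam1, Sdc4, Notch3 and, by little, Cdh15 were highest in Pax7-positive cells among these sets. Itga7 and Megf10 were not, and Chodl was near 0 in each. All 8 fibroblast genes of the list reached 10 CPM in MEF, and their summed level was 6077 CPM there, against 3009 CPM in Dcn-high, 563 in Pax7-positive, 153 in Myog-high and 68.2 CPM in Ckm-high cells. The 8 myocyte genes summed to 40743 CPM in Ckm-high and 11829 CPM in Myog-high cells; they were also at 3672 CPM in Dcn-high cells, above the 766 CPM of Pax7-positive cells, the set they were compared with. The 5 neuronal markers summed to between 25.9 CPM in MEF and 76.7 CPM in Pax7-positive cells, most of it Tubb3, with Snap25 at 20.1 CPM in Dcn-high cells, and Rbfox3 was at most 0.0217 CPM in any set. Of the 4 glial markers, Sox10 was at most 0.0454 CPM, but S100b was at 11.4 CPM in Dcn-high cells, against 0.152 to 0.727 CPM in the other 4 sets.

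In skeletal muscle, voltage-gated sodium channels carry the rising phase of the action potential, potassium channels end it and hold the resting potential, and the CLC channel of the surface membrane damps excitability. Undifferentiated myoblasts have a small resting potential; inward rectifier and other potassium currents make it more negative around the time of fusion. Fibroblasts are not excitable in this sense, but use potassium channels in volume control, calcium entry and proliferation, and most cells use the other CLC proteins as chloride-proton exchangers in endosomes and lysosomes.

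Promoters of some members that moved at the Myog step are shown first. Muscle regulatory factors such as MyoD and myogenin bind the E-box CANNTG, of which CAGCTG is a common muscle form. Only promoters that hold a CANNTG were eligible to be shown, so its presence in all those below follows from the selection. Kcnma1, Kcnn3 and Scn4a, also higher at that step, and Kcnmb4, lower at it, have windows without CANNTG. Below are the 250 bases before the RefSeq start (build GRCm38.p6), read 5′ to 3′ on the gene's strand, with every CANNTG in capitals; the motif is a palindrome, so a match on 1 strand is a match on both, and each CAGCTG is also a CANNTG. Kcnj2, Kcnk13 and Scn2a were higher in Myog-high than in Pax7-positive cells:
Kcnj2, chr11:111065914-111066163, plus strand: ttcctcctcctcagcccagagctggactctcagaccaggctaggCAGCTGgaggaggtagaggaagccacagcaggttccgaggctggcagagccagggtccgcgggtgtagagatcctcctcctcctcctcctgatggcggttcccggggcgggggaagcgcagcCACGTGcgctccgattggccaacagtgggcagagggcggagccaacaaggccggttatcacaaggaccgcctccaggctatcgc
Kcnk13, chr12:99964249-99964498, plus strand: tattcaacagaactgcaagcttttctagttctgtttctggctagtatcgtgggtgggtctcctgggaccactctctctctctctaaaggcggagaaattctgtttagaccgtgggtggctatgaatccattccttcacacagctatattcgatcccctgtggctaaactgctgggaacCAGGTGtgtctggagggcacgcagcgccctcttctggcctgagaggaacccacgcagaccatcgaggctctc
Scn2a, chr2:65620519-65620768, plus strand: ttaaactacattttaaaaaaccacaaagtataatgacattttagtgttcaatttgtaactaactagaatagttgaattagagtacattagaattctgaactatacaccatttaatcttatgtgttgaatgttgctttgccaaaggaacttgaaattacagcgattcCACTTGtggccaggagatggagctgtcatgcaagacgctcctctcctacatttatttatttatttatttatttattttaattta
Kcnj8, Kcnk2 and Scn9a were lower in Myog-high cells:
Kcnj8, chr6:142571615-142571864, minus strand: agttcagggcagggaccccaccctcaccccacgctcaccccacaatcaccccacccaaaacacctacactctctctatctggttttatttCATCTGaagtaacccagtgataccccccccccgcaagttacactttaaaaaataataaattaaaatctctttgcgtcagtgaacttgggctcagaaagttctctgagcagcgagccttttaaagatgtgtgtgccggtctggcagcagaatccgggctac
Kcnk2, chr1:189402274-189402523, minus strand: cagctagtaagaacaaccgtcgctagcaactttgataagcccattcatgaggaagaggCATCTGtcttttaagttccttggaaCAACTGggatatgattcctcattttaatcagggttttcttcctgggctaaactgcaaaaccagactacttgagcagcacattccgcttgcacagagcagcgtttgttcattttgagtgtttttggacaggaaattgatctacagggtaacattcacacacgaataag
Scn9a, chr2:66634963-66635212, minus strand: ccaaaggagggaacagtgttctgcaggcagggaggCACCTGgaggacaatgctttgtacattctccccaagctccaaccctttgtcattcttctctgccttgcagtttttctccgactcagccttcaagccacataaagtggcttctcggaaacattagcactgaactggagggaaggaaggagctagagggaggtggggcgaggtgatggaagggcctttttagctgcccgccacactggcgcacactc
The first and the fifth of these promoters hold 2 CANNTG matches each and the others 1 each. Among the 6 shown, the CAGCTG form stands in that of Kcnj2. The Kcnk2 stretch belongs to 1 of several starts, and windows of other Kcnk2 starts hold CAGCTG at -19 and -231. Kcne4 and Scn7a, also lower at the Myog step but not shown, hold it at -147 and -150. In the RefSeq table, 85 of the 114 genes have a window from 250 bases before to 50 bases after a start. Of 14 members that were higher at a differentiation step, 8 have such windows, 10 in all; 40% of these hold CANNTG and 10% hold CAGCTG. Of 8 members that were lower at a step, 7 have 11 windows, of which 81.8% hold CANNTG and 36.4% CAGCTG. Over all 32851 windows of the table the shares were 72.3% and 16.3%, and over the 116 windows of members 75% and 23.3%. The MEF2 motif, searched on both strands, was in 3.19% of all windows, 3.45% of the members' windows and 0% of the windows of members that moved at a step. These are counts of letters in a short window and say nothing about binding.

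**Figure D1:**
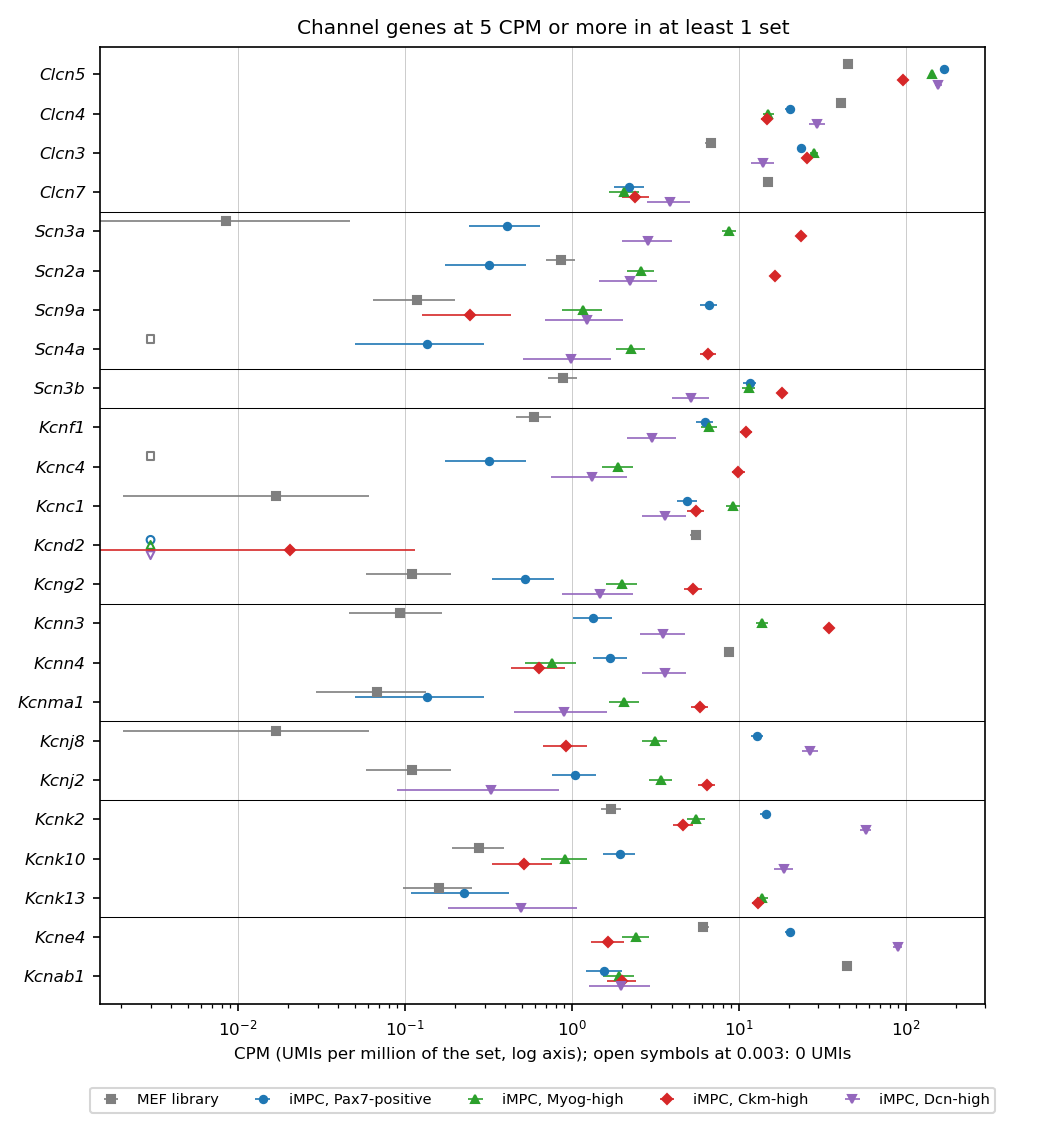
CPM (log axis) of 24 channel genes that reached 5 CPM in at least 1 of 5 cell sets, grouped by family, with exact Poisson 95% intervals; open symbols stand for 0 UMIs. The Ckm-high set is the highest of the 5 for 10 of these genes, MEF for 5, Dcn-high for 4, Myog-high for 3 and Pax7-positive for 2. No share over all genes stands beside these counts.

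Most channel genes were low, as were most genes of the libraries. In all iMPC or all MEF cells, 31 of the 114 members and 11844 of all 26100 genes reached 2 CPM. The counts over the 5 sets that follow have no such share of all genes beside them. Of the 114, 28 reached 5 CPM in at least 1 set, another 14 reached 2 CPM, and 72 stayed under 2 CPM in every set. There were 31 genes with 0 UMIs in MEF cells, 15 with 0 in iMPC cells and 11 with 0 in both, among them Kcng4, Kcnh6, Kcnh8, Kcnj1, Kcnj5, Kcnj6, Kcnj9, Kcnk16, Kcnk18 and Kcnv1. Summed over all members, channel UMIs were 291 CPM in MEF, 397 in Pax7-positive, 372 in Myog-high, 456 in Ckm-high and 561 CPM in Dcn-high cells. Levels are compared mainly between sets for the same gene. Where genes are set beside each other, as low or as the highest of a family, this is by counted UMIs alone. The plot of levels by set shows that the 24 genes drawn did not share a pattern: 10 had their highest level in Ckm-high cells and 5 in MEF. A gene is drawn through the set where it is high, and no share over all genes stands beside these counts. They therefore show no leaning of channel genes to a set.

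A gene counted as higher or lower when its CPM differed at least 2-fold and reached 2 CPM on the higher side; genes that reach 2 CPM in either set are the denominator. From Pax7-positive to Myog-high cells, 10 of the 28 members at that level were higher and 8 lower, where 7.49% of all 11278 genes were higher and 14.4% lower. From Myog-high to Ckm-high cells, 10 of 27 were higher and 1 lower, against 6.98% and 16.4% of 10847 genes. Dcn-high over Pax7-positive cells gave 14 higher and 5 lower of 29, against 13.6% and 7.2% of 11590 genes. In all iMPC against all MEF cells, 20 of 31 were higher and 10 lower, against 16.8% and 22.5% of 11844 genes; in Dcn-high iMPC cells against MEF it was 18 and 6 of 30, against 16.2% and 14.2% of 11897 genes. The members' median log2 ratios in these 5 comparisons were 0.13, 0.66, 0.81, 2.62 and 1.61, beside -0.19, -0.27, 0.04, -0.17 and -0.08 over all genes. A member that is high in only 1 set enters these counts through that set, and the comparisons share the Pax7-positive, Myog-high and MEF sets, so the counts describe and do not stand as separate support.

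Sodium channel alpha subunits moved in opposite directions along the muscle sets: Scn3a, Scn2a and Scn4a were higher in Myog-high than in Pax7-positive cells, and Scn9a and Scn7a were lower. Scn3a (ENSMUSG00000057182, chr2:65457118-65567627, minus strand), best known from embryonic brain, went from 0.409 CPM in Pax7-positive to 8.79 in Myog-high and 23.5 CPM in Ckm-high cells, with 2.88 CPM in Dcn-high cells and 1 UMI in MEF. Its log2 ratios at the 2 steps were 4.43 (3.75 to 5.20) and 1.42 (1.26 to 1.59), so each step was higher by more than its counting error.

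Scn2a (ENSMUSG00000075318, chr2:65620771-65767447, plus strand), a channel of central neurons, rose at both steps. Its level was 0.318 CPM in Pax7-positive, 2.60 in Myog-high and 16.4 CPM in Ckm-high cells, beside 2.22 in Dcn-high cells and 0.864 CPM in MEF. The log2 ratio was 3.03 (2.23 to 3.94) at the Myog step (2.06 when each cell was thinned at random to the same number of UMIs) and 2.66 (2.38 to 2.95) at the Ckm step. Within the Ckm range it went on from 6.86 CPM in 498 cells with 2 to 4 Ckm UMIs to 12.6 CPM in 704 cells with 5 to 19 and 22.3 CPM in 327 cells with 20 to 99. Scn4a (ENSMUSG00000001027, chr11:106318592-106353288, minus strand), the adult skeletal muscle sodium channel, had 0 UMIs in MEF. It stood at 0.136 CPM in Pax7-positive cells (6 UMIs), 2.25 in Myog-high, 6.58 in Ckm-high and 0.986 CPM in Dcn-high cells (12 UMIs). In all iMPC cells it was at least 91.7-fold above the MEF level that 3 counts would give. Scn3a, Scn2a and Scn4a all lay under 1 CPM in MEF and were highest in Ckm-high cells. With the set thresholds applied to cells thinned to equal depth, the Ckm-step log2 ratios of Scn3a and Scn4a were 0.66 and 0.63, under 2-fold.

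The alpha genes Scn9a and Scn7a fell. Scn9a (ENSMUSG00000075316, chr2:66480080-66634962, minus strand), known from sensory neurons, was at 6.61 CPM in Pax7-positive, 1.17 in Myog-high, 0.247 in Ckm-high, 1.23 in Dcn-high cells and 0.119 CPM in MEF. Its log2 ratio at the Myog step was -2.50 (-2.95 to -2.08) and that of Dcn-high over Pax7-positive cells -2.42 (-3.28 to -1.68); they were -3.18 with raised set thresholds and -3.21 without shared cells, respectively, so it was highest in the progenitor set by both comparisons. Scn7a, which encodes a sodium-level sensor rather than a voltage-gated pore, went from 3.54 CPM in Pax7-positive to 0.519 in Myog-high and 0.103 CPM in Ckm-high cells, with 1.07 in Dcn-high cells and 0.119 CPM in MEF. Further alpha genes were low: Scn8a was at most 1.15 CPM, Scn1a 0.204, Scn10a 0.0822 and Scn11a 0.0205 CPM in any set.

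Beta subunits assemble with the alpha subunits and act in cell adhesion. Scn3b (ENSMUSG00000049281, chr9:40269217-40291618, plus strand) was at 0.881 CPM in MEF, 11.6 in Pax7-positive, 11.5 in Myog-high, 18.1 in Ckm-high and 5.17 CPM in Dcn-high cells. All iMPC cells together were 14.1-fold above MEF for this gene, while the Pax7-positive and Myog-high sets had overlapping intervals. Scn4b reached at most 0.164 CPM and Scn2b had 0 UMIs in all 5 sets.

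**Figure D2:**
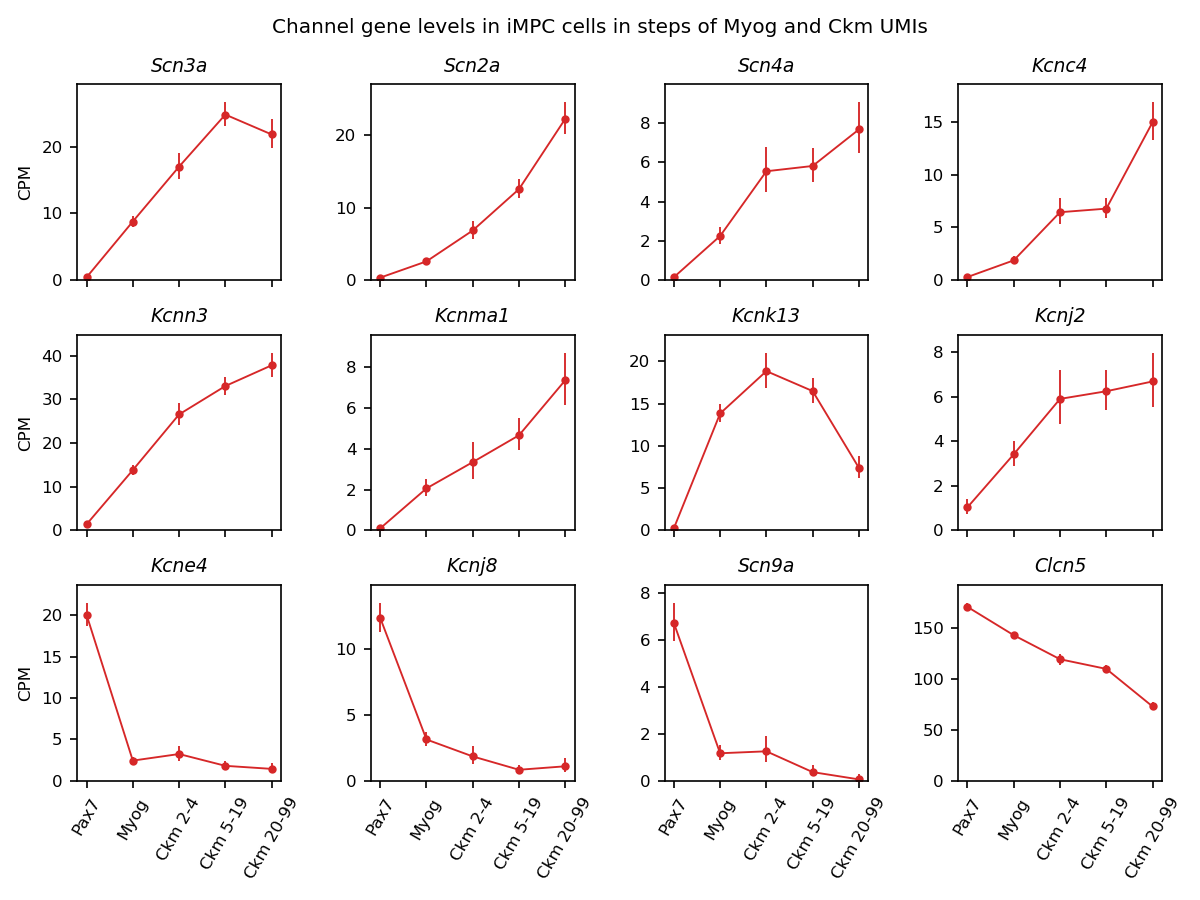
CPM with exact Poisson 95% intervals of 12 channel genes in iMPC cells ordered by marker UMIs: Pax7-positive cells without Myog and Ckm (1963 cells), Myog-high (1724), and 2 to 4 (498), 5 to 19 (704) and 20 to 99 (327) Ckm UMIs. Scn2a, Kcnc4 and Kcnma1 continue upward to the last group. Kcnn3, Scn4a and Kcnj2 do so too, but their last intervals overlap. Scn3a does not, with 24.8 and then 21.8 CPM in the last groups and overlapping intervals. Kcnk13 peaks at 2 to 4 Ckm UMIs, and Kcne4 and Kcnj8 drop at the Myog step. Median depth per cell runs from 18527 to 52267 UMIs along the same order.

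Among voltage-gated potassium channels, 15 of the 40 genes reached 2 CPM in some set. Kcnf1, Kcng2 and Kcns3 encode electrically silent subunits that form channels only together with other voltage-gated subunits. Kcnf1 (ENSMUSG00000051726, chr12:17172100-17176888, minus strand) was at 6.25 CPM in Pax7-positive, 6.64 in Myog-high, 11.0 in Ckm-high and 3.04 CPM in Dcn-high cells, against 0.593 CPM in MEF, 12.4-fold below all iMPC cells. Kcng2 (ENSMUSG00000059852) was higher at the Ckm step, with 0.522, 1.99, 5.32 and 1.48 CPM in the same 4 sets and 0.110 CPM in MEF. Kcns3 ran the other way: 2.29 CPM in Pax7-positive, 0.325 in Myog-high and 0.123 CPM in Ckm-high cells, with a log2 ratio of -2.82 at the Myog step. Kcnf1 and Kcng2 were thus highest in Ckm-high cells and Kcns3 in Pax7-positive cells. Kcnq5, which contributes a slowly gating current in several tissues, changed at the Ckm step, from 0.866 to 3.41 CPM (log2 ratio 1.98, 1.47 to 2.51).

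The fast-repolarising Kcnc family differed among its members. Kcnc4 (ENSMUSG00000027895, chr3:107438303-107459552, minus strand) had 0 UMIs in MEF, 0.318 CPM in Pax7-positive, 1.88 in Myog-high, 9.91 in Ckm-high and 1.31 CPM in Dcn-high cells. Its log2 ratio at the Ckm step was 2.40 (2.06 to 2.74), and along the Ckm range it went from 6.44 CPM at 2 to 4 Ckm UMIs to 15.0 CPM at 20 to 99. Kcnc1 (ENSMUSG00000058975, chr7:46396497-46438704, plus strand) was highest in the middle set, with 4.88 CPM in Pax7-positive, 9.26 in Myog-high and 5.53 CPM in Ckm-high cells, though neither step passed 2-fold; 2 UMIs were found in MEF. Kcnc2 reached 2.46 CPM in Dcn-high cells and at most 0.454 CPM elsewhere. Kcnh2 was between 1.43 and 2.59 CPM in the 4 iMPC sets and passed 2-fold at neither step. Its log2 ratio at the Myog step was 0.71 (0.25 to 1.18).

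Calcium-activated potassium channels, which couple calcium release to repolarisation, included clear risers. Kcnn3 (ENSMUSG00000000794, chr3:89520164-89675132, plus strand), the small-conductance channel that immature and denervated muscle are known to express, was at 0.0932 CPM in MEF, 1.34 in Pax7-positive, 13.8 in Myog-high, 34.9 in Ckm-high and 3.53 CPM in Dcn-high cells. The log2 ratios at the Myog and Ckm steps were 3.37 (2.98 to 3.78) and 1.34 (1.20 to 1.47); with thinned cells the latter was 0.90, under 2-fold. Kcnma1 (ENSMUSG00000063142, chr14:23289431-24014491, minus strand), the large-conductance channel, went from 0.136 CPM (6 UMIs) to 2.06 and 5.82 CPM over the same sets, with 0.904 CPM in Dcn-high cells and 0.0678 CPM in MEF. Kcnmb4, a beta subunit of the latter channel, fell where its partner rose, from 2.38 CPM in Pax7-positive to 0.303 in Myog-high and 0.185 CPM in Ckm-high cells. Kcnn4 (ENSMUSG00000054342, chr7:24370263-24386690, plus strand), the intermediate-conductance channel of proliferating fibroblasts and blood cells, was highest in MEF at 8.72 CPM (8.20 to 9.27), with 3.61 in Dcn-high, 1.70 in Pax7-positive, 0.758 in Myog-high and 0.637 CPM in Ckm-high cells. Of the other 7 genes of this group, under 2 CPM in every set, Kcnu1 had the highest level at 1.31 CPM; Kcnn2 reached 2.05 CPM in Dcn-high cells.

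Inward rectifiers were mostly low, and 3 of the 15 reached 2 CPM. Kcnj2 (ENSMUSG00000041695, chr11:111066164-111076821, plus strand), whose current sets the resting potential of muscle and precedes myoblast fusion, was at 1.04 CPM in Pax7-positive, 3.42 in Myog-high, 6.41 in Ckm-high, 0.329 in Dcn-high cells (4 UMIs) and 0.110 CPM in MEF. Its log2 ratio was 1.71 (1.23 to 2.22) at the Myog step and 0.91 (0.63 to 1.19), under 2-fold, at the Ckm step. Kcnj12, of the same subfamily, and Kcnj11, the pore of the classical muscle ATP-sensitive channel, were at 1.05 and 1.29 CPM in Ckm-high cells and at 0 UMIs in MEF; both stayed under 2 CPM.

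Kcnj8 (ENSMUSG00000030247, chr6:142564837-142571614, minus strand), the pore of the vascular type of ATP-sensitive channel, had its lowest iMPC level where Kcnj11 had its highest. It was at 12.9 CPM (11.8 to 14) in Pax7-positive, 3.14 (2.65 to 3.69) in Myog-high, 0.925 (0.675 to 1.24) in Ckm-high and 26.9 CPM (24.0 to 29.9) in Dcn-high cells, with 2 UMIs in MEF. Log2 ratios were -2.03 at the Myog step and -1.76 at the Ckm step (-2.53 with Scrublet doublets removed), and it was the only member lower at the latter by the 2-fold rule. The gene of its regulatory subunit, Abcc9, was at 6.5, 10, 20 and 24.2 CPM in the same 4 sets and at 0 UMIs in MEF. Like Kcnj8 it was highest in Dcn-high cells, but its level did not fall along the muscle sets. The smooth muscle markers summed to 411, 862, 794 and 707 CPM in the same 4 sets and 10227 CPM in MEF, mostly Acta2 and Tagln. Within iMPC, Actg2 (8.29, 4.22, 2.28 and 29.4 CPM), Myh11 (1.79, 1.21, 0.925 and 6.49 CPM) and Cnn1 (1.34, 0.714, 0.391 and 2.79 CPM) had the same order of sets as Kcnj8. Tagln was also highest in Dcn-high cells at 162 CPM. Acta2 had another order, with 308, 815, 737 and 506 CPM. In MEF, where Kcnj8 had 2 UMIs, Actg2, Myh11, Cnn1 and Tagln were at 344, 27.9, 146 and 3600 CPM. The part of the smooth muscle genes in the Kcnj8 levels was not tested.

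Of the two-pore-domain channels, which carry background potassium current, 3 of 14 reached 2 CPM. Each differed between some of the sets, but none passed the 2-fold rule at the Ckm step. Kcnk13 (ENSMUSG00000045404, chr12:99964499-100062682, plus strand) was at 0.227 CPM (10 UMIs) in Pax7-positive, 13.8 in Myog-high, 13.0 in Ckm-high, 0.493 in Dcn-high cells (6 UMIs) and 0.161 CPM in MEF. The log2 ratio at the Myog step was 5.93 (5.04 to 7.0), the highest among the members called at that step, and at the Ckm step -0.09 (-0.25 to 0.07). Along the Ckm range its level was 18.8 CPM at 2 to 4 Ckm UMIs, 16.5 at 5 to 19 and 7.40 CPM at 20 to 99, so it was lower again in the cells with most Ckm. Kcnk5 was at most 1.66 CPM, in Pax7-positive cells, and the other 10 low members of this family were at most 0.575 CPM.

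Kcnk2 and Kcnk10 encode mechanically gated channels of the TREK type and were highest in Dcn-high cells. Kcnk2 (ENSMUSG00000037624, chr1:189207930-189402273, minus strand) was at 57.4 CPM (53.2 to 61.8) in Dcn-high, 14.5 (13.4 to 15.7) in Pax7-positive, 5.56 (4.90 to 6.29) in Myog-high, 4.64 (4.06 to 5.29) in Ckm-high cells and 1.72 CPM (1.49 to 1.97) in MEF. Kcnk10 (ENSMUSG00000033854, chr12:98429437-98578310, minus strand) was at 18.6, 1.93, 0.909, 0.514 and 0.280 CPM in the same order. In the Dcn-high set 17.4% of cells held its 226 UMIs, and the cell with most held 31. Both genes were also higher with more Dcn: Kcnk2 from 25.1 CPM in 552 cells with 1 to 4 Dcn UMIs to 49.0 in 310 cells with 5 to 19 and 67.2 CPM in 243 cells with 20 or more, and Kcnk10 from 3.63 to 8.11 and 30.7 CPM.

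Of the 12 accessory subunit genes, Kcne4 and Kcnab1 reached 2 CPM, the first highest in Dcn-high cells and the second in MEF. Kcne4 (ENSMUSG00000047330, chr1:78816758-78820028, plus strand), a membrane subunit that suppresses several voltage-gated potassium channels, was at 89.5 CPM (84.2 to 94.9) in Dcn-high, 20.3 (19 to 21.7) in Pax7-positive, 2.42 (2.0 to 2.92) in Myog-high, 1.64 (1.30 to 2.05) in Ckm-high cells and 6.13 CPM (5.69 to 6.59) in MEF. It fell by 3.07 on the log2 scale (-3.36 to -2.78) at the Myog step. After thinning, 40.9% of Dcn-high cells, 10.5% of Pax7-positive, 1.74% of Myog-high and 4.35% of MEF cells held a Kcne4 UMI, and before thinning 58.8%, 16.4%, 3.13% and 9.05%. With cells that Scrublet marks as doublets removed, the log2 ratio at the Myog step was -3.87. Kcnab1 (ENSMUSG00000027827, chr3:65109384-65378223, plus strand), a cytoplasmic beta subunit of voltage-gated channels, instead stood at 44.2 CPM (43.0 to 45.4) in MEF and between 1.57 and 1.99 CPM in the 4 iMPC sets. Of the other 10 accessory genes, all under 2 CPM, Kcnip3 had the highest level at 1.81 CPM, and Kcnip2 was at 1.38 CPM in Ckm-high cells and at most 0.238 CPM elsewhere.

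**Figure D3:**
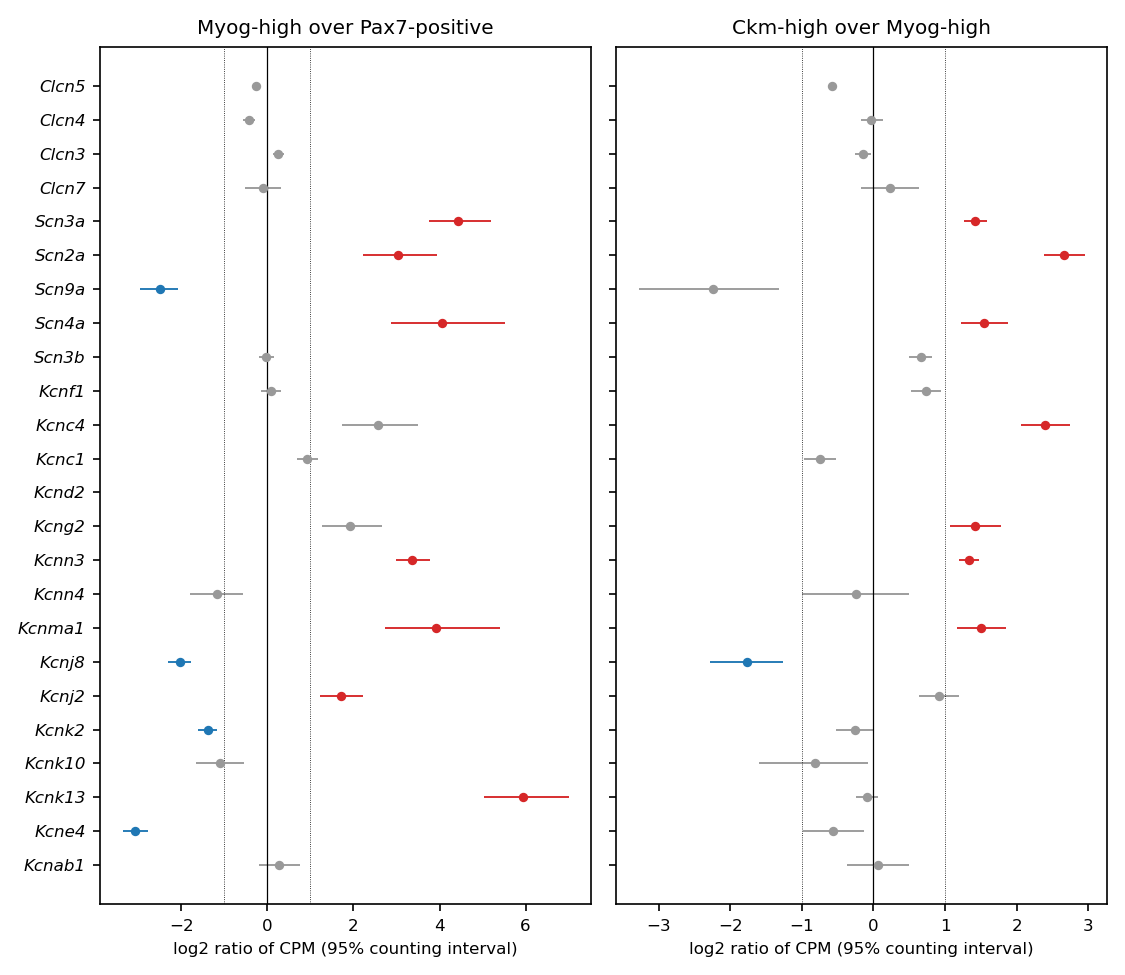
Log2 ratio of CPM with exact 95% counting intervals for the same 24 genes, Myog-high over Pax7-positive cells on the left and Ckm-high over Myog-high cells on the right; red and blue mark at least 2-fold higher or lower with 2 CPM on the higher side, and Kcnd2 has too few UMIs for a ratio. Kcnk13 has the highest ratio on the left (5.93) and Scn2a on the right (2.66); the 4 CLC genes stay within 2-fold in both.

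None of the CLC genes changed by 2-fold at either muscle step, although 6 of 7 reached 2 CPM. Clcn5 (ENSMUSG00000004317, chrX:7153810-7319358, minus strand), an endosomal chloride-proton exchanger, was at 170 CPM (166 to 174) in Pax7-positive, 143 (139 to 146) in Myog-high, 95.6 (92.9 to 98.4) in Ckm-high, 157 (150 to 164) in Dcn-high cells and 45.2 CPM (44.0 to 46.5) in MEF. Its intervals separate the muscle sets, but the steps are 1.19-fold and 1.49-fold. The decline ran through the Ckm range, from 119 CPM at 2 to 4 Ckm UMIs to 110 at 5 to 19 and 72.9 CPM at 20 to 99. Clcn3 (ENSMUSG00000004319, chr8:60910389-60983300, minus strand), also an endosomal exchanger, was between 23.6 and 28.4 CPM in the 3 muscle sets, 13.9 CPM in Dcn-high cells and 6.78 CPM in MEF.

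Clcn4 and Clcn7 were higher in MEF. Clcn4 (ENSMUSG00000000605, chr7:7282309-7300851, minus strand), which can pair with the product of Clcn3, was at 40.9 CPM in MEF, 29.4 in Dcn-high, 20.2 in Pax7-positive, 15.0 in Myog-high and 14.7 CPM in Ckm-high cells. Clcn7 (ENSMUSG00000036636, chr17:25133391-25162104, plus strand), the lysosomal exchanger, was at 15.1 CPM (14.4 to 15.8) in MEF, 3.86 in Dcn-high and between 2.06 and 2.40 CPM in the 3 muscle sets. Its obligate partner Ostm1 was at 15.9 CPM in MEF and 2.88, 2.81, 6.02 and 5.17 CPM in Pax7-positive, Myog-high, Ckm-high and Dcn-high cells, lower in all iMPC cells than in MEF by the same rule. Clcn6 was between 3.08 and 4.78 CPM and Clcn2 between 1.09 and 2.48 CPM across the 5 sets. Clcn1, the surface chloride channel of mature skeletal muscle, was at 0.247 CPM (12 UMIs) in Ckm-high cells and between 0.102 and 0.329 CPM in the other sets. Its level in the cells with 20 to 99 Ckm UMIs, 0.384 CPM (0.154 to 0.791), had an interval that overlapped that of Myog-high cells, so no difference was detectable at this depth.

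Dcn-high cells differed from Pax7-positive cells of the same library in Kcne4, Kcnk2, Kcnk10 and Kcnj8, which were higher with log2 ratios of 2.14 (2.01 to 2.27), 1.98 (1.83 to 2.14), 3.27 (2.90 to 3.64) and 1.06 (0.86 to 1.26). When the Dcn-high cells that also belong to another set were left out, 407 cells remained, and their levels were 97.1 CPM for Kcne4, 56.7 for Kcnk2, 16.3 for Kcnk10 and 32.7 CPM for Kcnj8. Of these levels, those of Kcnk2 and Kcnk10 lay within the intervals of the whole Dcn-high set. Those of Kcne4 and Kcnj8 lay above the whole-set intervals of 84.2 to 94.9 and 24.0 to 29.9 CPM. Kcnj8 was at 32.7 CPM in Dcn-high cells without Pax7 and at 17.8 CPM in those with Pax7. The ratio of Kcnk10 was 4.20 when shared cells were left out of both sets, that of Kcnk2 was 2.63 with thinned cells, and Kcnj8 is near the 2-fold line, with a log2 ratio of 0.95 when mitochondrial and ribosomal protein genes are taken out of the total. S100b and the smooth muscle genes other than Acta2 were also highest among the iMPC sets in Dcn-high cells, and their part in these levels was not tested.

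Some sodium and potassium channel genes highest in Ckm-high cells gave another picture in the same comparison. Scn2a, Scn3a and Kcnn3 were higher in Dcn-high than in Pax7-positive cells by the 2-fold rule, with log2 ratios of 2.80, 2.81 and 1.40. In the 407 cells outside the other sets, the myocyte list was at 1528 CPM in place of 3672, and the 3 genes were at 0.247 CPM (2 UMIs), 0.988 and 1.48 CPM. Against Pax7-positive cells without shared cells, the Scn2a ratio became -0.09 and that of Kcnn3 0.14, so these were no longer higher, while that of Scn3a was 1.20 and passed 2-fold. With Scrublet doublets removed, the ratio of Kcnn3 was 0.51 and that of Scn3a 1.31. With thinned cells, that of Scn3a turned to -0.82, that of Kcnn3 was 0.03 and that of Scn2a 1.13. The myocyte markers thus moved with these 3 genes between the Dcn-high set and its part outside the other sets, and their part in the result was not tested. Lower in Dcn-high cells were Scn9a, Scn7a, Kcns3, Scn3b at -1.17 (-1.57 to -0.79) and Kcnf1 at -1.04 (-1.58 to -0.54). The Scn3b ratio was -1.97 as a mean over cells, -1.84 without doublets, -2.02 without shared cells and -3.67 with thinned cells, and that of Kcnf1 was -0.69, under 2-fold, with thinned cells. Low-level members higher in Dcn-high cells were Kcnh1 (2.63 against 0.931 CPM), Kcnc2 (2.46 against 0.454), Kcnd1 (2.46 against 1.11), Kcnn2 (2.05 against 1.0) and Kcnn4 (3.61 against 1.70 CPM), the latter with a log2 ratio of 1.09 that was 0.97 without mitochondrial and ribosomal protein genes in the total.

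Free RNA in the droplets bears on low values in sets that should lack a gene. In 48846 iMPC barcodes with 200 to 600 UMIs, the 430 UMIs of the median barcode, added to each cell, would give 60.3% of the Scn4a UMIs of Pax7-positive cells, 45.9% of those of Kcnk13, 23.8% of Kcnn3, 22.5% of Scn3a, 22.4% of Kcnc4 and 22.1% of Scn2a. In Dcn-high cells the share was 25.5% for Kcnj2 and 19.4% for Kcnk13. In Myog-high cells it was at most 2.85% for each of the 28 genes at 5 CPM or more but Kcne4 (4.17%). With the free profile subtracted, the Myog-step log2 ratio was 6.80 for Kcnk13 and 5.33 for Scn4a.

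**Figure D4:**
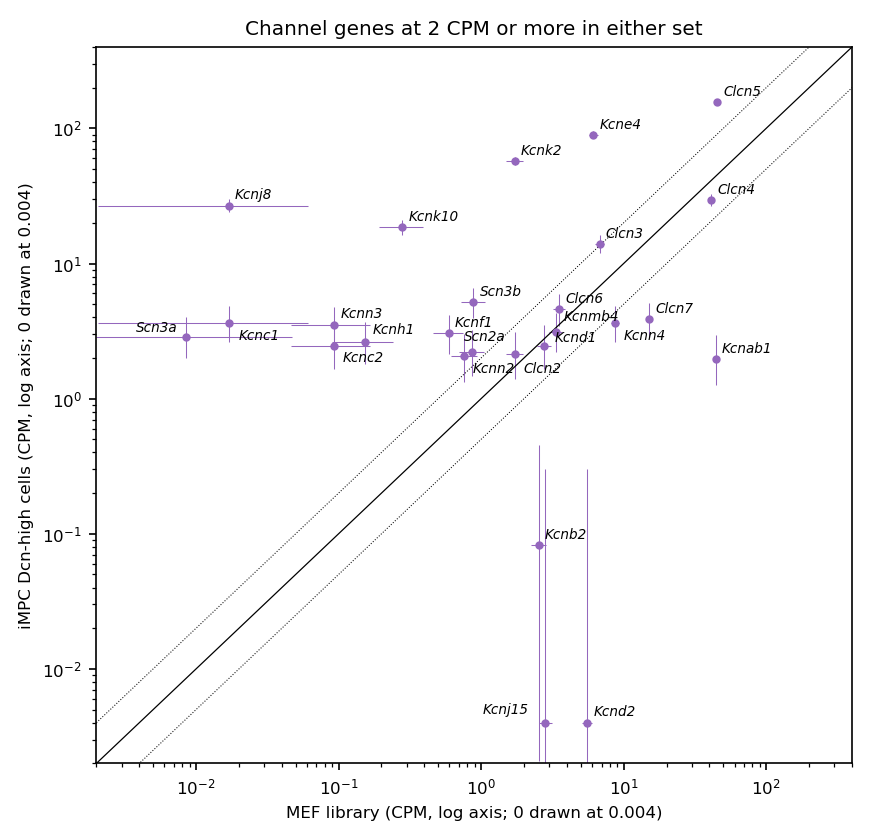
CPM in Dcn-high iMPC cells against CPM in MEF, both log axes, for 26 channel genes at 2 CPM or more in either set, with exact Poisson 95% intervals; the solid line marks equal levels, the dotted lines 2-fold, and 0 UMIs are drawn at 0.004. Kcne4, Kcnk2, Kcnk10 and Kcnj8 lie far above the dotted lines, as do Scn3a, Kcnc1, Kcnn3, Kcnc2 and Kcnh1 at lower Dcn-high levels. Kcnab1, Kcnd2, Kcnj15 and Kcnb2 lie far below.

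Both MEF and Dcn-high iMPC cells carry fibroblast markers, but their channel genes differed, as the plot of these sets shows. Kcne4 was 14.6-fold, Kcnk2 33.4-fold and Kcnk10 66.4-fold higher in Dcn-high cells than in MEF, and Clcn5 was 3.46-fold higher. For Kcnj8, with 2 UMIs in MEF, the log2 ratio was 10.63 with an interval from 8.77 to 13.68. Clcn4 was within 2-fold, with a log2 ratio of -0.48. Clcn3, Scn3b, Kcnf1, Kcnc1, Kcnn3, Kcnn2, Kcnc2, Kcnh1, Scn2a and Scn3a were also higher by the 2-fold rule. Scn3a and Kcnc1, with 1 and 2 UMIs in MEF, had log2 ratios of 8.41 and 7.74 (2.25 and 5.25 with thinned cells). With thinned cells the log2 ratio was 0.33 for Clcn3, 0.34 for Scn3b and 0.30 for Scn2a. As a mean over cells it was 0.87 for Clcn3 and 0.49 for Scn2a, and without doublets 0.88 for each. Without the shared cells it was 0.84 for Clcn3 and -1.81 for Scn2a. The myocyte list was at 3672 CPM in Dcn-high cells and 95.9 CPM in MEF, and its part in these ratios was not tested. With 1 library per culture, culture and library cannot be told apart.

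Lower in Dcn-high cells than in MEF were Kcnab1, Clcn7, Kcnn4, Kcnd2, Kcnb2 and Kcnj15. The Kcnn4 log2 ratio of -1.27 went under 2-fold as a mean over cells (-0.98) and with thinned cells (-0.89). Kcnab1 stood 22.4-fold lower, and its 5222 MEF UMIs came from 2565 of the 6043 cells. Kcnd2 (ENSMUSG00000060882, chr6:21215503-21729805, plus strand), a fast-inactivating channel best known from brain and heart, had 653 UMIs in 526 MEF cells (5.53 CPM) and 2 UMIs in all iMPC cells, a log2 ratio of -9.33 (-12.38 to -7.47). Kcnb2 had 299 UMIs in MEF (2.53 CPM) and 3 in all iMPC cells. Kcnj15 had 334 UMIs in MEF (2.83 CPM) and 4 in iMPC. No MEF cell held more than 5 UMIs of Kcnd2, Kcnb2 or Kcnj15, so these counts did not come from a few cells. Kcnd1, of the same subfamily as Kcnd2, was at 2.77 CPM in MEF and 2.46 CPM in Dcn-high cells, against 1.11 CPM in Pax7-positive cells. Taking all iMPC cells, 10 members were lower than in MEF, among them these 6 and Clcn4, Kcnmb4 and Kcnd1.

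Other genes of membrane excitability, 54 listed transporters, regulatory subunits and further channels, were read beside the members. From Pax7-positive to Myog-high cells 8 of the 30 at 2 CPM or more were higher and 6 lower, beside 7.49% and 14.4% of all genes. From Myog-high to Ckm-high cells 10 of 29 were higher and 4 lower, beside 6.98% and 16.4%. Atp1b4, a muscle-specific relative of the sodium pump beta subunits, went from 0.114 CPM in Pax7-positive to 4.50 in Myog-high and 23.3 CPM in Ckm-high cells. Fgf13, a cytoplasmic sodium channel modulator, was at 0.613, 5.74 and 20.8 CPM. Fgf13 was higher at the Ckm step, as were Scn2a, Scn3a and Scn4a.

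Between the cultures, 11 of the 30 partner genes at 2 CPM or more were higher in iMPC and 5 lower, beside 16.8% and 22.5% of all genes. The volume-regulated anion channel subunit gene Lrrc8c was at 63.0 CPM in MEF, 8.34 in Pax7-positive, 4.26 in Myog-high and 0.658 CPM in Ckm-high cells; Lrrc8a and Lrrc8d were lower in iMPC than in MEF as well, Lrrc8e was higher (log2 ratio 2.88) and Lrrc8b was within 2-fold (0.47). In Dcn-high cells 7 of 28 were higher than in Pax7-positive cells and 1, Ano5, was lower, beside 13.6% and 7.2% of all genes; against MEF it was 12 higher and 5 lower of 29, beside 16.2% and 14.2%.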

How the data were processed

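Single-cell libraries of MEF and iMPC were made with the 10x Genomics 3′ v3 kit, per the labels' protocols. Cell Ranger 4.0, Seurat 3.2.3 and the build GRCm38.p6 stand in the submitters' processing notes, with no role or order given. The deposited matrices hold UMI counts per gene and barcode, not normalized; the iMPC matrix is unfiltered, with 6794880 listed barcodes, and the MEF matrix lists 6113 barcodes, whose selection is not given in the sources used here. From these counts, cells with at most 20% mitochondrial UMIs were kept, in iMPC those with at least 8036 UMIs; 661 kept MEF cells lie under that number, and UMIs were summed per set and divided by the set's total. The 24 genes listed only in MEF, with 0.209% of its UMIs, were left out.

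Intervals of levels are exact Poisson and those of ratios exact conditional binomial, at 95%; a level of 0 is set at 3 counts, a ratio against it is a lower bound, and no ratio is given where both sets have at most 3 UMIs. The named genes are the members that reached 5 CPM in at least 1 of the 5 sets, at most 30 by level; other members are named for their role or because they are among few that were called. The members, gene lists and marker lists were chosen with earlier results of these data known. Doublets were kept, except in an alternative with Scrublet, which marked 337 of the 9349 iMPC cells; in MEF it marked 1 cell, so there the 249 cells with the highest scores were removed. Gene coordinates are those of GENCODE M21, and promoter windows are from RefSeq. Protein sequences are not used here, and some genes are not reported individually. Several named genes overlap other annotated genes, and reads of such pairs may be shared. Splitting cells by ranges of Dcn UMIs, and the marker levels of the Dcn-high cells outside the other sets, were chosen after seeing the data. The scripts, in Python 3.11.15 (scanpy 1.11.5 for Scrublet; scipy 1.17.1 for intervals; also pandas 2.3.3, numpy 2.4.6 and, for figures, matplotlib 3.10.9), were tested on simulated data. Alternatives were tried for the denominator, scaling, summing, doublets, free RNA, thresholds, depth, mitochondrial and UMI limits, overlapping cells, minimum level and fold.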

Additional observations from a re-analysis of the deposited data

Results flagged for a closer look

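Channel RNA was also present in iMPC barcodes too small to be kept as cells. In the 48846 barcodes with 200 to 600 UMIs, the 114 genes had 5050 of 21254587 UMIs, or 238 CPM, where a count of 0 would allow up to 0.141 CPM, and 80 of the 114 had at least 1 UMI. The same genes summed to 403 CPM in the kept iMPC cells. The level in these barcodes was 45.2 CPM for Clcn5 and 15.0 CPM for Kcnn3, and Kcnd2 had 0 UMIs there, as nearly everywhere in iMPC.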

How the results depend on the processing

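Each of 10 counts of called members was recomputed under 14 alternatives; 123 of the values lay within 1.5 times the reported count and 17 did not. With at least 5 CPM, the counts were 6 lower in iMPC than MEF, 6 higher and 5 lower at the Myog step, 0 lower at the Ckm step, 5 higher and 3 lower in Dcn-high than Pax7-positive cells, and 9 higher in Dcn-high cells than MEF. With at least 1 CPM, 3 were lower at the Ckm step and 29 higher in Dcn-high cells than MEF. At 4-fold, 6 were lower in iMPC, 2 higher and 0 lower at the Ckm step, and 5 higher and 1 lower in Dcn-high than Pax7-positive cells; at 1.5-fold, 3 were lower at the Ckm step. These move by construction. No share of all genes at these settings is given beside them, so they are not set against a background. At the Ckm step, 2 were lower with raised thresholds and 3 with thinned cells; the cause was not tested. Of 68 single-gene ratios under 10 alternatives, 13 fell under 2-fold or changed sign somewhere. The sign changes were Scn3a (-0.82) with thinned cells and Scn2a (-0.09) without shared cells in Dcn-high over Pax7-positive cells, and Scn2a (-1.81) without shared cells in Dcn-high over MEF; the cause was not tested. Thinning moved iMPC ratios against MEF that rest on few UMIs in both directions: lower for Scn3a (9.92 to 6.04) and Kcnc4 (6.92 to 4.61), higher for Kcnk13 (5.43 to 6.24) and Scn9a (4.97 to 5.72). It moved Kcnd2 from -9.33 to -7.15. It raised the Ckm-step ratios of Kcnc4 to 3.82, Kcnma1 to 2.77 and Kcng2 to 3.15. No paired analysis was possible because each group holds 1 library. Depth limits the Dcn-high set most, where 0 UMIs allow 0.246 CPM.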
